A study of Homo sapiens with 6 samples.

Results

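Guanylate-binding proteins (GBPs) are large GTPases of the dynamin superfamily that cells make in response to interferons, most of all IFN-γ. RNA-Seq counts of 6 GBP genes, GBP1, GBP2, GBP3, GBP4, GBP5 and GBP7, were read out of a table of 63677 genes. They were chosen by name, as GBP genes that lie side by side on chromosome 1, and not by a rule on their counts. Earlier results of these data were known when the choice was made. The cells were RPMI8226, a human multiple myeloma (MM) line derived from a single patient's tumour and labelled wild type. Exposure lasted 6 hr and the dose was 100 nM, of either GST-PTR1 or GST, in 3 biological replicates each, and all 6 libraries came from the same line, medium and time. In GST-PTR1 a domain of the matrix protein HAPLN1, called PTR1, is joined to the carrier glutathione-S-transferase (GST), and the carrier alone was the negative control. The comparison asks which genes the PTR1 domain changes beyond what the carrier does.

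In the textbook account, IFN-γ binds its receptor, the kinases JAK1 and JAK2 become active, and signalling reaches gamma-activated sites (GAS) in the promoters of GBP genes, with IRF1 acting at interferon-stimulated response elements (ISRE). The proteins hydrolyse GTP, assemble on the membranes of vacuoles and on the surface of bacteria that have entered a cell, and there recruit enzymes such as caspase-4. GBP1, GBP2 and GBP5 end in a CaaX motif that is prenylated and anchors them to membranes, and TNF and IL-1 are also known to raise GBP1.

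All 6 genes were higher with GST-PTR1, by between 2.53-fold for GBP3 and 36.7-fold for GBP2 in the edgeR fit, and the treatments did not overlap for any of them. The edgeR quasi-likelihood test called 6 of 6 higher at an adjusted p under 0.05, where 9.15% of the 16926 genes tested were called higher and 11.4% lower. At least a 2-fold increase was called for 6 of 6, against 3.68% of all genes higher and 3.85% lower by that rule, and 6 of 6 did not overlap, against 19.2% of all genes with every GST-PTR1 library above every GST library. GBP7 passed edgeR's filter for low counts only through the GST-PTR1 libraries, so its place in these counts was partly set by the filter. With at least 10 counts required in every library, GBP7 was not tested and 5 of 5 were called higher. The median log2 fold change was 3.97 over the 6 genes and 0.01 over all genes. An exact permutation test of a single gene, two-sided, gave p = 0.1 for each of the 6, the smallest that 3 libraries against 3 can give. In bulk RNA, more cells expressing a gene and more RNA per cell cannot be told apart. The labels call the replicates biological without saying how they were cultured, so the p-values measure the spread between these libraries, which may in part be technical.

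Depth ran from 15202503 to 23453473 counts with GST and from 22874133 to 44688737 counts with GST-PTR1. Values per library are given below in order of rising depth within a treatment. CPM (counts per 1000000 counts of the library) were computed on totals scaled by TMM, edgeR's factor for the make-up of a library, and 3 counts, taken as the limit of detection, were worth between 0.0761 and 0.18 CPM. Without that scaling, on library totals, the median over all genes moved by -0.20 in log2 terms, and the calls over all genes went from 1549 higher and 1937 lower to 927 higher and 3795 lower. The 6 GBP genes stayed called higher there. All 9 plasma cell markers looked at were expressed, with a summed level of 4076 to 4786 CPM with GST and 3956 to 4906 CPM with GST-PTR1, most of it JCHAIN and MZB1. Single markers did change: SDC1 (-1.03 on the log2 scale), TNFRSF17 (-1.41) and XBP1 (-0.47) fell, and PRDM1 (1.35), SLAMF7 (1.52) and IRF4 (0.65) rose. Whether this has a part in the GBP results was not tested. The 7 markers of T and NK cells summed to 4.99 to 5.42 CPM with GST and 3.02 to 3.46 CPM with GST-PTR1, nearly all of it CD8A, since the 6 others had at most 3 counts in every library. The markers of monocytes and macrophages and of stroma and endothelium summed to less than the T and NK markers in every library, and CD2, FCN1, CD163, COL1A2, COL3A1 and CDH5 were at 0 counts in all 6 libraries.

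The genes fill 266196 bases of chromosome 1 in GRCh37, from 89472349 to 89738544, all on the minus strand, in the order GBP3, GBP1, GBP2, GBP7, GBP4 and GBP5. Promoter sequences are shown for the 4 members for which RefSeq sequence was at hand, because these genes moved together and sit in 1 cluster. GBP2 and GBP5 are named only. Each sequence runs 5′ to 3′ on the gene's own strand, from 250 bases before to 50 bases from the RefSeq start on, in GRCh38.p14, at chr1:89022817-89023116 for GBP3, chr1:89065159-89065458 for GBP1, chr1:89175954-89176253 for GBP7 and chr1:89198893-89199192 for GBP4. Capitals mark matches, on either strand, to the GAS core TTCNNNGAA, the ISRE core (GAAA, any 2 bases, GAAA) or the κB motif, the DNA element that NF-κB binds.
GBP3: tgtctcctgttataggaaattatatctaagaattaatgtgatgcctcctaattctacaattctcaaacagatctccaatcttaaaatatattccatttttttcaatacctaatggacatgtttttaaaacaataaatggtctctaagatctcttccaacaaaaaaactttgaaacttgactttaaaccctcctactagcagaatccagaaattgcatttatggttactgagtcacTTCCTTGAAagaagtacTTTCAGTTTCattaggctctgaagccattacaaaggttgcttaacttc
GBP1: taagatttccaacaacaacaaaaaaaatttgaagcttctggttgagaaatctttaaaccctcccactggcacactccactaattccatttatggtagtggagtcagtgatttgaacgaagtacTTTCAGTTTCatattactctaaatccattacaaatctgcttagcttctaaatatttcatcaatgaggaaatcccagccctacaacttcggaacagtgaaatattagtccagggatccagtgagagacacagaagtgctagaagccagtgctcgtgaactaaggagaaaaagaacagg
GBP7: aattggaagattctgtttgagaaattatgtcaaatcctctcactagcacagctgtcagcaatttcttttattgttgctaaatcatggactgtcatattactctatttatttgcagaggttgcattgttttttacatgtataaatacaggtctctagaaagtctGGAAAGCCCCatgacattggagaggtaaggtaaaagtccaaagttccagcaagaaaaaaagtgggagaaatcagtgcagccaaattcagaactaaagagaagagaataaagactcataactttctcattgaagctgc
GBP4: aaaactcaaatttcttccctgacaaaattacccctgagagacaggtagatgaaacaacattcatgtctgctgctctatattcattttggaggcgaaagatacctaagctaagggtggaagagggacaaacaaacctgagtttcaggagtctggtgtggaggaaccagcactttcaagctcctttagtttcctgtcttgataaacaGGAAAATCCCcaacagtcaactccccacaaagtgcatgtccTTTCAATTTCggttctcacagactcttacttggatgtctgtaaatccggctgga

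The ISRE core was found in 3 of the 4 promoters, each on the reverse strand: in GBP1 at positions -127 to -118 (TTTCAGTTTC), in GBP3 at 3 to 12 with the same letters, and in GBP4 at -4 to 6 (TTTCAATTTC), where position 1 is the first transcribed base. Of all 35116 promoters of this length, 3.57% hold that core. The GAS core was found in GBP3 alone of the 4, at -15 to -7 (TTCCTTGAA), and 7.66% of all promoters hold it. A κB match was found in GBP4 at -45 to -36 and in GBP7 at -87 to -78, and 11.3% of all promoters hold one. The capitals in one promoter do not overlap each other. A match is a stretch of letters and says nothing of what binds there. Its absence concerns this window and these exact patterns only, so a site that departs from the pattern by a letter would be missed.

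GBP1 (ENSG00000117228, chromosome 1, 89518002 to 89531043) encodes the member that binds lipopolysaccharide on Gram-negative bacteria and starts the coat in which other GBPs join. It had 112, 161 and 205 counts with GST and 2196, 2635 and 4811 with GST-PTR1. All GST-PTR1 libraries were more than 10 times above all GST libraries in CPM, and the deepest GST-PTR1 library, at 122.1 CPM, stood above the other two at 96.6 and 98.6. The mean rose from 7.53 ± 0.752 CPM (SD, n = 3) to 105.8 ± 14.2 CPM (SD, n = 3). Its log2 fold change was 3.81 (SE 0.14), with an adjusted p of 2.29e-08 in edgeR's quasi-likelihood test.

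GBP2 (ENSG00000162645, 89571815 to 89616139), a prenylated member that is recruited to bacteria after GBP1 and that also restrains furin, a protease that matures viral envelope proteins, rose most. Counts were 20, 22 and 23 with GST and 921, 925 and 1572 with GST-PTR1. GBP2 was thus among the low genes of the GST libraries, at 0.923 to 1.20 CPM, and at 33.9 to 41.4 CPM with GST-PTR1. Means were 1.06 ± 0.140 and 38.4 ± 3.95 CPM (SD, n = 3 each), and the log2 fold change was 5.20 (SE 0.17; edgeR adjusted p = 9.86e-09), rank 54 of the 16926 genes from the top.

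GBP5 (ENSG00000154451, 89724633 to 89738544) encodes the member known for promoting assembly of the NLRP3 inflammasome, and it also restrains furin. It had 18, 40 and 58 counts with GST and 1218, 1458 and 2266 with GST-PTR1. The GST libraries were less alike here than for GBP1 or GBP2, running from 1.08 CPM in the shallowest to 2.33 CPM in the deepest, while the GST-PTR1 libraries lay between 53.4 and 57.5 CPM. The change from 1.77 ± 0.632 to 55.2 ± 2.09 CPM (SD, n = 3 each) was 4.92 on the log2 scale (SE 0.20; edgeR adjusted p = 4.5e-08), or 30.2-fold.

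GBP4 (ENSG00000162654, 89646831 to 89664615), which lacks a prenylation motif and joins the coat through other GBPs, reached the highest CPM of the 6. Its counts were 120, 163 and 246 with GST and 3197, 3998 and 5803 with GST-PTR1. The GST-PTR1 libraries were close to each other, at 143.5, 146.5 and 147.3 CPM, and the GST libraries lay at 7.21, 7.72 and 9.87 CPM. From 8.27 ± 1.41 to 145.8 ± 1.97 CPM (SD, n = 3 each), the log2 fold change was 4.13 (SE 0.13; edgeR adjusted p = 1e-08).

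GBP3 (ENSG00000117226, 89472349 to 89488577), a close relative of GBP1 that takes part in caspase-4 activation on bacteria, changed least. It had 132, 244 and 247 counts with GST and 530, 658 and 1056 with GST-PTR1. Among the 6 genes it was the highest in the GST libraries, at 7.93, 11.6 and 9.91 CPM, and with GST-PTR1 it lay at 23.8, 24.1 and 26.8 CPM. The treatments did not overlap, with means of 9.80 ± 1.82 and 24.9 ± 1.65 CPM (SD, n = 3 each). The log2 fold change was 1.34 (SE 0.15, 95% interval 1.02 to 1.66), with an edgeR adjusted p of 9.02e-05. When edgeR tested for a change beyond 2-fold, which 2.0% of all genes passed as higher, GBP3 was the only member of the 6 that did not pass (adjusted p = 0.164).

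GBP7 (ENSG00000213512, 89597434 to 89641723), a further member of the family, was at the limit of detection in the GST libraries, with 1, 3 and 1 counts. With GST-PTR1 it had 20, 34 and 36 counts, or 0.898, 1.25 and 0.914 CPM. The treatments did not overlap, since the highest GST value was 0.142 CPM. Pooled over libraries, 5 counts stood against 90, a ratio of 12.7 per scaled total with an exact 95% counting interval of 5.24 to 40.0, which covers counting error only. The edgeR adjusted p was 0.000309, for a gene that passed the filter for low counts only through the GST-PTR1 libraries. With so few counts the fitted log2 fold change of 3.59 (SE 0.46) depends on the prior count and is no bound, and without the GST library of 20077280 counts, which held 3 of the 5, it was 4.27 (edgeR adjusted p = 0.00142).

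**Figure D1:**
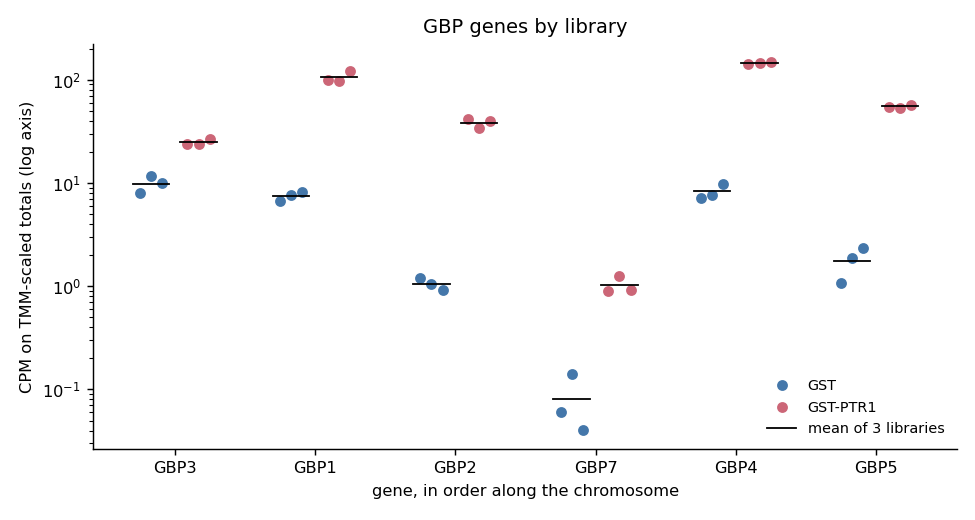
CPM on TMM-scaled totals (log axis) of the 6 GBP genes in each library, in chromosome order, with 3 GST and 3 GST-PTR1 libraries a gene and the mean as a bar. Each gene's GST-PTR1 points lie above its GST points, GBP4 has the highest GST-PTR1 points at 143.5 to 147.3 CPM, and GBP7 stays near 1.02 CPM.

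Per length of exon, the order of the genes changed with treatment. On the scale of RPKM (CPM per kilobase of exon, on unscaled library totals), GBP3 was highest with GST at 2.43 ± 0.404, followed by GBP1 at 1.61 ± 0.138, GBP4 at 1.44 ± 0.235, GBP5 at 0.230 ± 0.0794, GBP2 at 0.180 ± 0.0271 and GBP7 at 0.0350 ± 0.0229 (SD, n = 3 each). The ranges of GBP1 and GBP4 overlapped, and so did those of GBP5 and GBP2, while the other neighbours in that order were apart. With GST-PTR1, GBP4 led at 22.2 ± 0.886 RPKM and GBP1 followed at 19.7 ± 1.68, with overlapping ranges. GBP5 at 6.28 ± 0.184, GBP2 at 5.71 ± 0.659 and GBP3 at 5.40 ± 0.0948 RPKM came next, each overlapping its neighbour, and GBP7 was last at 0.388 ± 0.0810 RPKM. By its mean, GBP3 thus went from the first place to the fifth, though GBP2 was above it in only 2 of the 3 GST-PTR1 libraries. The order of the genes within a treatment holds only for the summed exon lengths used, such as 4992 bases for GBP1 and 6127 for GBP4. The longest annotated transcripts of these genes have 3035 and 6127 bases, so division by those would raise GBP1 relative to GBP4. Whether GBP4 would still lead GBP1 with GST-PTR1 was not tested.

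Summed over the 6 genes, the level on unscaled library totals rose from 5.93 ± 0.667 to 59.7 ± 1.47 RPKM (SD, n = 3 each), a ratio of means of 10.1. On TMM-scaled totals and without division by length, the sum went from 28.5 ± 3.76 to 371 ± 20.6 CPM (SD, n = 3 each). The share of GBP3 in the summed RPKM was 40.9% ± 3.83 with GST and 9.05% ± 0.145 with GST-PTR1. GBP4 went from 24.3% ± 2.83 to 37.2% ± 1.98 and GBP1 from 27.2% ± 1.42 to 33.0% ± 2.37. GBP5 went from 3.80% ± 0.966 to 10.5% ± 0.246 and GBP2 from 3.10% ± 0.848 to 9.55% ± 0.909 (SD, n = 3 each). For these 5 genes the shares in the GST and GST-PTR1 libraries did not overlap. GBP7 held 0.589% ± 0.357 and 0.653% ± 0.153, which overlapped. A share depends on no scaling factor, since the depth of a library cancels within it. It does depend on the exon lengths used, so the ranking of the shares within a treatment holds for these lengths only.

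**Figure D2:**
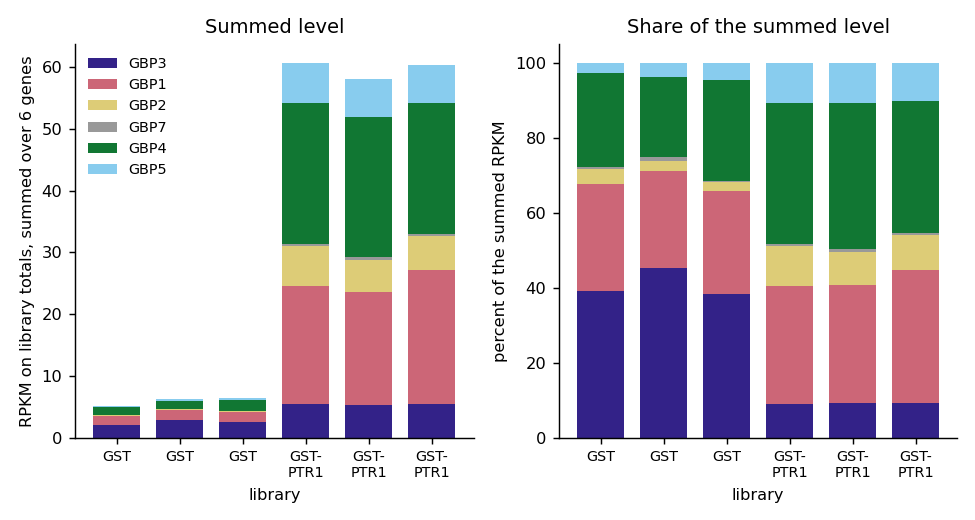
Summed RPKM on library totals (left) and the share of each gene in that sum in percent (right), with 1 stacked bar for each of the 3 GST and 3 GST-PTR1 libraries. The sum rises from 5.93 to 59.7 RPKM on average, and GBP3 goes from the largest share, 40.9%, to 9.05%.

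Ordered by fold change, the genes were GBP2, GBP5, GBP4, GBP1, GBP7 and GBP3. Whether neighbours in that order differ was read from the log2 ratio of their counts within a library, which no scaling factor touches. For GBP2 and GBP5 that ratio overlapped between treatments, with a difference of 0.15 (exact permutation p = 0.8), so their order was not resolved. GBP5 changed more than GBP4 by 0.88 and GBP4 more than GBP1 by 0.34 on the log2 scale. For GBP1 and GBP7 the ratios overlapped, with a difference of -0.04 (exact permutation p = 0.9), and this order was not resolved either. GBP7 changed more than GBP3 by 2.49. For GBP5 and GBP4, GBP4 and GBP1, and GBP7 and GBP3 the treatments did not overlap (exact permutation p = 0.1 each, the smallest possible), and the 95% intervals of the fitted fold changes were apart for the first and the last of these pairs. The values with GBP7 rest on 1, 3 and 1 GST counts, and a prior count of 2 moved them to 0.98 against GBP1 and 1.46 against GBP3.

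Some reads could not be assigned cleanly between these genes. In the annotation used for counting, exons of GBP2 and GBP7 share 621 bases on the same strand, which are 9.89% of the exon bases of GBP2 and 25.3% of those of GBP7. By the default of the counting program, reads within that stretch are counted for neither gene. In the longest GENCODE 29 transcript of each gene, 24.4% of the 50-base windows of GBP7 and 17.6% of those of GBP2 also occur in another GBP locus, mostly in each other. The share was 13.3% for GBP1, mostly in GBP1P1, 3.44% for GBP3, 0.313% for GBP4 and 0 for GBP5. Levels of GBP1, GBP2 and GBP7 are therefore uncertain to the extent that reads matched several places, and how the aligner marked such reads is not given in the sources used here. How far this moved their counts was not tested.

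Outside the 6, GBP6 and the pseudogene GBP1P1 lie beyond GBP5 on the plus strand. GBP6 (ENSG00000183347, 89829617 to 89852020) had 1, 3 and 2 counts with GST and 19, 34 and 26 with GST-PTR1, a pooled ratio of 9.27 per scaled total (exact 95% counting interval 4.08 to 26.0; edgeR adjusted p = 0.00104). The pattern was thus like that of GBP7, from the limit of detection to a low level. GBP6 too passed edgeR's filter for low counts only through the GST-PTR1 libraries. GBP1P1 (ENSG00000225492, 89873238 to 89891802) went from 1.98 ± 0.412 to 20.4 ± 3.24 CPM (SD, n = 3 each), or 3.35 on the log2 scale (SE 0.19; edgeR adjusted p = 5.22e-07). Since 22.9% of the 50-base windows of its longest transcript also occur in another GBP locus, mostly GBP1, its counts are uncertain too.

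Within 500 kb on either side of the cluster, 24 other genes were annotated, of which 9 were tested, GBP6 and GBP1P1 among them. The 7 outside the family had log2 fold changes between -0.06 (PKN2, a protein kinase) and 0.54 (GTF2B, a general transcription factor, adjusted p = 0.0569 in edgeR). By edgeR, 2 of the 7 were called higher, RBMXL1 by 0.40 (adjusted p = 0.0199) and LRRC8B, a subunit of volume-regulated anion channels, by 0.36 (adjusted p = 0.0468), and none was called lower. Of all genes tested, 9.15% were called higher and 11.4% lower. With library totals neither RBMXL1 nor LRRC8B was called, at 0.20 (edgeR adjusted p = 0.206) and 0.16 (edgeR adjusted p = 0.386). PTGES3P1, which lies between GBP1 and GBP2, had a log2 fold change of 0.12 (edgeR adjusted p = 0.514). Every one of the 8 GBP loci had a larger fold change than each of these 7 neighbours.

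**Figure D3:**
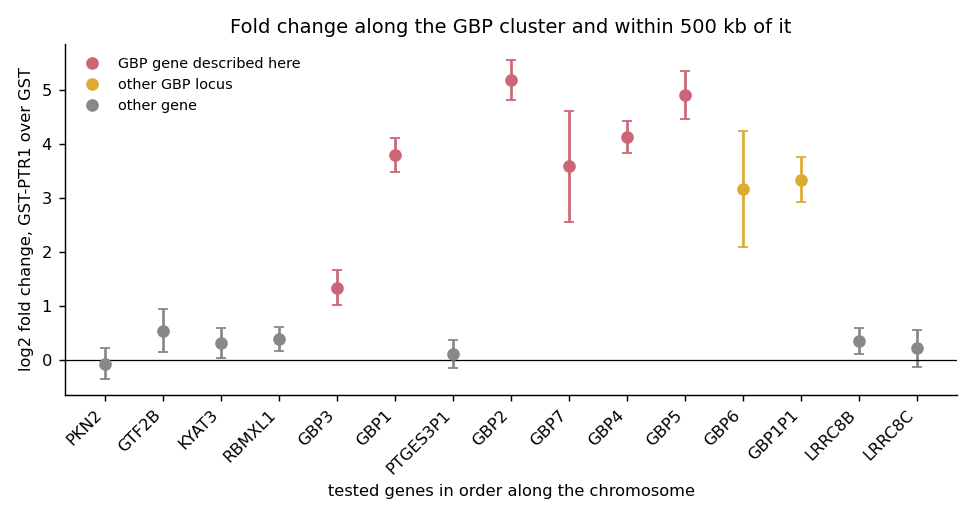
Log2 fold change of GST-PTR1 over GST with its 95% interval (edgeR, n = 3 each) for the 15 tested genes in and around the cluster, in chromosome order. The 6 GBP genes lie between 1.34 and 5.20, GBP6 and GBP1P1 at 3.18 and 3.35, and the 7 other genes between -0.06 and 0.54.

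Tested genes for ligands, receptors, kinases and transcription factors upstream of GBPs in the textbook pathway had smaller fold changes than the GBP genes other than GBP3. IFNG, the IFN-γ gene itself, had 0 counts in all 6 libraries, which at these depths allows up to 0.0761 CPM in the deepest and 0.18 CPM in the shallowest. Of the 7 ligands and receptors 6 were tested, and 3 were higher and none lower, where 9.15% of all genes were higher and 11.4% lower. IFNGR2, the signalling chain of the IFN-γ receptor, rose from 58.8 ± 1.44 to 132 ± 16.1 CPM, or by 1.17 on the log2 scale (edgeR adjusted p = 3.14e-05). The ligand-binding chain IFNGR1 stood at 24.7 ± 3.30 and 26.7 ± 3.81 CPM and was not called (edgeR adjusted p = 0.61). IFNB1, which encodes IFN-β, had 13, 34 and 36 counts with GST and 61, 85 and 188 with GST-PTR1, a log2 fold change of 1.46 (edgeR adjusted p = 0.00615). IFNL1, a type III interferon, had 8, 7 and 14 counts against 37, 22 and 72, a log2 fold change of 1.64 (edgeR adjusted p = 0.0121). The GST libraries alone would not have passed IFNL1 through edgeR's filter for low counts. Its call was lost when the GST library of 20077280 counts was left out (1.45, edgeR adjusted p = 0.0526).

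Of the 10 kinases and transcription factors of the pathway, all tested, 7 were higher and none lower, against 9.15% and 11.4% of all genes. Their median log2 fold change was 0.68. IRF1 rose from 77.4 ± 5.46 to 257 ± 9.31 CPM (1.73 on the log2 scale, edgeR adjusted p = 6.97e-07) and IRF8, a factor of B cells and myeloid cells, from 47.4 ± 4.65 to 151 ± 9.43 CPM (1.67, edgeR adjusted p = 1.63e-06). STAT2 and IRF9, which act after type I interferon, were not called, with log2 fold changes of -0.04 and 0.10. The kinase genes JAK2 (0.71) and TYK2 (0.49) were called, and both calls were lost with library totals.

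Among 6 inhibitors of the pathway, 4 were higher and 1 lower, against 9.15% and 11.4% of all genes. SOCS3, which binds cytokine receptors and blocks JAK kinases, went from 21, 23 and 32 counts to 5539, 5353 and 7457, a log2 fold change of 7.44 (edgeR adjusted p = 1.09e-09). SOCS1, the inhibitor most tied to IFN-γ signalling, went from 1.65 ± 0.643 to 18.5 ± 2.85 CPM, 3.47 on the log2 scale (edgeR adjusted p = 2.7e-06). The phosphatase gene PTPN6 was lower by a log2 value of -0.66 (edgeR adjusted p = 0.0444), with overlapping treatments, and its call was lost in several fits that left a library out.

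Of 15 other genes known to be induced by IFN-γ, 13 were tested, 11 were higher, none was lower and 7 rose at least 2-fold, with a median log2 fold change of 1.11. The shares over all genes tested were 9.15% higher, 11.4% lower and 3.68% at least 2-fold higher. The chemokine genes CXCL9, CXCL10 and CXCL11, whose products attract T cells, rose by 4.79, 4.93 and 5.58 on the log2 scale. They are also known targets of NF-κB, as is ICAM1, the adhesion molecule, which rose by 2.33. CIITA, the master regulator of MHC class II genes, rose by 3.07, CD274, which encodes PD-L1, by 1.77 and the peptide transporter gene TAP1 by 1.11. The authors describe PD-L1 too as lying downstream of NF-κB. The immunoproteasome genes PSMB8, PSMB9 and PSMB10 had log2 fold changes between 0.49 and 0.63, and all 3 calls were lost with library totals. IDO1 and UBD, both classical IFN-γ targets, were not tested, with at most 3 counts in any library.

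Of 13 genes whose products work with GBPs or in the same defence of the cell, 11 were tested. Of these, 7 were higher and 1 lower, against 9.15% and 11.4% of all genes. CASP5, an inflammatory caspase that senses lipopolysaccharide, had 0, 1 and 4 counts with GST and 24, 35 and 87 with GST-PTR1, a pooled ratio of 20.6 (exact 95% counting interval 8.62 to 64.3; edgeR adjusted p = 0.000509). Its fitted log2 fold change went from 4.22 to 5.64 without the GST library of 23453473 counts, which held 4 of the 5 GST counts. CASP5 also passed edgeR's filter for low counts only through the GST-PTR1 libraries. PIM1, a kinase that phosphorylates GBP1 and holds it in the cytosol, rose by 2.23 on the log2 scale, from 61.7 ± 8.20 to 290 ± 12.2 CPM. AIM2, a sensor of DNA, rose by 2.22, APOL3, which breaks up bacterial membranes after GBP1 has bound, by 1.91 and RNF213, which ubiquitylates lipopolysaccharide, by 1.25. CASP4 rose by 0.74, from 36.6 ± 1.57 to 60.9 ± 10.9 CPM. GSDMD, the pore-forming substrate of these caspases, stood at 49.0 ± 6.27 and 42.3 ± 3.46 CPM and was not called, and FURIN was not called either. PYCARD, the adaptor of inflammasomes, was lower by a log2 value of -0.48 (edgeR adjusted p = 0.0476), a call that several alternatives lost. NLRP3 had at most 4 counts in any library and was not tested.

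CaaX prenylation and processing enzymes, which GBP1, GBP2 and GBP5 need for their membrane anchor, had a median log2 fold change of 0.06. Of 6 tested, only PGGT1B, the catalytic subunit of an enzyme that adds geranylgeranyl groups, was called, higher by 0.42 (edgeR adjusted p = 0.0297), and that call was lost with library totals (0.22, edgeR adjusted p = 0.222). Of 12 other large GTPases of the dynamin superfamily, 11 were tested, 2 were higher, 1 was lower and the median was 0.17, and at these list sizes such counts lie near the 9.15% higher and 11.4% lower of all genes. The interferon-induced MX1 and MX2 rose by 0.63 and 0.66, MX1 from a level of 1327 ± 289 CPM, and the call for MX1 was lost with library totals. ATL1, an atlastin that fuses tubules of the endoplasmic reticulum, fell from 18, 16 and 25 counts to 4, 6 and 11, a log2 fold change of -1.99 (edgeR adjusted p = 0.00194). ATL1 passed edgeR's filter for low counts only through the GST libraries, so its call was partly set by the filter. With at least 10 counts required in every library it was not tested. Over the 69 genes of these 7 lists, 63 were tested, 35 were called higher and 3 lower, to be read against the same shares of all genes.

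**Figure D4:**
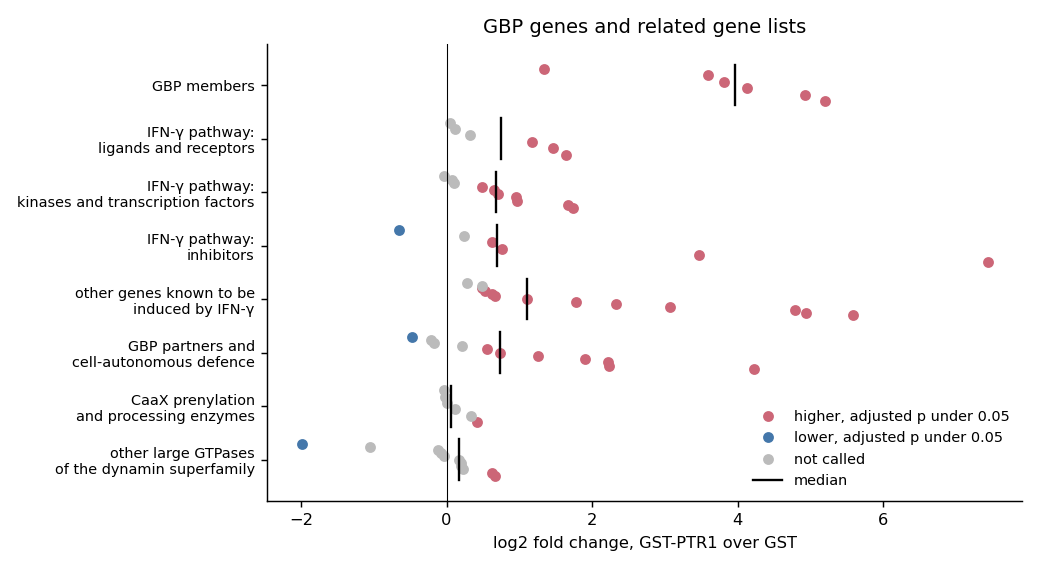
Log2 fold change of GST-PTR1 over GST (edgeR, n = 3 each) for the tested genes of the GBP family and of the 7 other lists, coloured by call at an adjusted p under 0.05, with each list's median as a bar. The GBP median is 3.97, and the other medians lie between 0.06 and 1.11.

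For each GBP gene, the 3 genes outside the family whose log2 CPM over the 6 libraries, centred on the gene's own mean, lay nearest were sought among 13360 genes with a mean of at least 50 counts. The distance is Euclidean, in log2 CPM, and it mostly reflects the size of the treatment difference and the spread that the libraries share. GBP1 lay nearest to LTB, which encodes lymphotoxin β, at a distance of 0.157, followed by PTGER4, a prostaglandin E2 receptor, and BIRC3, an inhibitor of apoptosis. GBP4 also had BIRC3 as its nearest gene, at 0.328, and then C2CD4A and DRAM1. GBP5 lay nearest to CXCL10, at 0.576, and then PTX3 and BATF. GBP2 lay nearest to TSPAN33, CEBPD and FLVCR2, at 0.524 to 0.631, and GBP7 to TLE4, TNFRSF9 and ENSG00000112096. The log2 CPM of GBP7 rest on few GST counts and depend on the prior count of 2. Its 3 neighbours had fitted log2 fold changes of 2.63, 3.05 and 2.84, below its own 3.59. GBP3 lay nearest to GTDC1, at 0.136, IFIH1, a sensor of viral RNA, and UNC13C.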

How the data were processed

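RPMI8226 cells were sequenced from strand-specific polyA libraries of total RNA. The deposited values are raw read counts per gene, not normalized, beside summed exon lengths, which the authors made with featureCounts 1.5.0-p1 on the Ensembl 75 annotation of GRCh37, counting the reverse strand. The command in the header sets no option to count reads that match several places or genes, and by default featureCounts leaves out reads so marked. The processing notes list Subread, a package that holds an aligner as well as featureCounts, and do not say which aligner was used or how it marked such reads. Libraries were assigned to treatments from the column names, whose numbers do not match the replicate numbers, so no pairing was used (4 libraries share 2 of those numbers, and their deviations correlated at r = -0.03 over 16926 genes). No pair of libraries within a treatment agreed within sampling noise (smallest chi-square per gene 7.66).

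These counts went through edgeR 4.0.16 in R 4.3.3 (TMM, filterByExpr, glmQLFit, glmQLFTest, Benjamini-Hochberg over 16926 genes, threshold 0.05), after a check of the script on simulated data. Alternatives used DESeq2 1.42.0, limma 3.58.1 (voom), library totals, other filters and leaving out each library. Gene symbols were matched by identifier for 39699 genes. Older symbols were resolved through RefSeq, and PECAM1, placed on a patch only, was not analysed here. Promoters came from RefSeq (GRCh38.p14, found for 4 of the 6 genes). The members and lists were chosen with earlier results of these data known. Named genes were all GBP loci, called neighbours, list genes called with at least a 2-fold change (otherwise the one with the smallest adjusted p) and the 3 nearest genes, and others named from the lists were chosen after their values were seen. A single list gene is not reported here by name.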

Additional observations from a re-analysis of the deposited data

How the results depend on the processing

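All 6 GBP genes were called higher in 14 of 16 alternatives. With a minimum of 10 counts in every library GBP7 was not tested and 5 of 5 were called, and in the test against a fold change of 2 GBP3 was not called. The log2 fold change over the other alternatives ran from 3.61 to 3.88 for GBP1, 5.00 to 5.28 for GBP2, 1.14 to 1.48 for GBP3, 3.94 to 4.29 for GBP4, 4.70 to 5.18 for GBP5 and 3.21 to 4.27 for GBP7, whose ends came from leaving out a GST library. The replicate number of the samples could not be matched to the columns. Among the columns, 4 carry a number that occurs in both treatments, and with that number as a replicate block 6 of 6 were called higher, as without it. With library totals, 5 list genes were lower in place of 3, with GSDMD and DNM1 added, and 26 were higher in place of 35. Of the 42 other named genes with a call, 28 kept it in every alternative run, 14 lost it in some, 11 of them with library totals, and none reversed. On TMM-scaled totals 3 of 12 RPKM levels moved by more than 1 SD, those of GBP3, GBP4 and GBP5 with GST-PTR1 (5.80, 23.8 and 6.73). Depth limits GBP7 and GBP6 most, at or under 3 counts in each GST library. For neighbours in the order of fold changes, ratios of raw counts were used after a prior count of 2 had been seen to move those of GBP7, a choice made after seeing the data.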
